A study of Mus musculus with 15 samples.

Results

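The genes described here are 31 mouse genes of cholesterol synthesis, its control, and the transport, efflux and storage of cholesterol. They were chosen by name from a fixed list of 32 names, of which Msmo1 and Sc4mol name the same gene (listed as Sc4mol in the count table). All 31 were found among the 18804 genes of the table and all 31 passed the filter on low counts, which kept 14293 genes. They comprise 19 synthesis enzymes, 6 genes of the SREBP control system, and 6 genes of sterol transport, efflux and esterification.

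The study asked how white adipocytes in culture adapt to cool surroundings. Mesenchymal stem cells of the ear, taken from C57BL/6J mice without a mutation, were turned into adipocytes, and RNA was sequenced from 3 groups of 5 libraries, 15 in all. The day 0 group was kept at 37°C throughout, the day 1 group spent its last day at 31°C, and the day 12 group went to 31°C on day 4 for its last 12 days, with harvest of all 3 on day 16 of differentiation. Adipogenesis had been induced in every group, the day 0 cells included, with methylisobutylxanthine, dexamethasone, insulin and a thiazolidinedione, which is troglitazone in the labels and rosiglitazone in the general culture methods. Neither labels nor methods tie a library to a culture or mouse of its own, so SDs and p-values cover the spread between these libraries only. In a culture sequenced in bulk, fewer cells of a type and less RNA per cell cannot be told apart.

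Cholesterol is made in the endoplasmic reticulum and peroxisomes from acetyl-CoA through mevalonate, isoprenoid diphosphates, squalene and lanosterol. The transcription factor SREBP-2, the product of Srebf2, is held in the endoplasmic reticulum membrane by SCAP and the INSIG proteins when sterols are plentiful. When membrane sterol falls, SCAP carries it to the Golgi, where the proteases encoded by Mbtps1 and Mbtps2 release its active part, which turns on the synthesis enzymes. The nuclear receptors LXR respond to oxysterols and act the other way, raising the ATP-driven exporters ABCA1 and ABCG1. Adipocytes hold much of the body's free cholesterol in their membranes and at the surface of the lipid droplet.

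Total counts per library lay between 64648178 and 133270973, and the lowest count of a member in a library was 120, for Tm7sf2. For the members with the fewest counts, Tm7sf2, Stard4 and Mvd, counting error was a sizeable part of the spread between libraries. It exceeded that spread for Stard4 and Mvd at day 1 only. Levels are given in CPM, counts brought to a common library total after TMM scaling, and changes as log2 fold changes ± SE from 1 edgeR quasi-likelihood fit over all 15 libraries. A gene was called, and is said to have risen or fallen, at a Benjamini-Hochberg adjusted p under 0.05 over all 14293 genes and a fold change over 1.5, which is 0.585 on the log2 scale. The 8 adipocyte markers summed to 4386 to 5010 CPM at day 0, 5319 to 5899 at day 1 and 4685 to 5256 at day 12, and none was at 0. Within that sum the markers moved apart, since at day 12 Adipoq (-1.24), Cidec (-1.59) and Pparg (-0.59) fell and Fabp4 rose (0.97), and at day 1 Cidec fell (-2.62) and Fabp4 rose (0.76). Stromal progenitor markers (7 genes) summed to 7085 to 7682, 6648 to 6788 and 6007 to 6256 CPM. Most of it was Dcn (a mean of 5984 CPM at day 0), and Dpp4 and Pi16 were under 1 CPM in every library. The cultures thus also held RNA of part of this list. At day 12 Ly6a fell (-1.42) and the 4 others tested were not called. Macrophage markers (8 genes) summed to 26.6 to 33.9, 42.4 to 48.6 and 30.1 to 34.5 CPM, with Ptprc, Adgre1 (listed as Emr1), Itgam and Mrc1 under 1 CPM in every library, and endothelial markers (5 genes) to at most 1.77 CPM. Proliferation markers (9 genes) summed to 96.9 to 113 CPM at day 0, 117 to 129.9 at day 1 and 223 to 261 at day 12, where 8 of the 9 rose. Mesothelial markers (6 genes) summed to 9.90 to 11.4, 12.7 to 15.0 and 29.6 to 43.9 CPM, of which Msln alone rose at day 12 (5.51), while the median of the 4 tested was -0.19. The part of these adipocyte, Ly6a, proliferation and Msln changes in the sterol results was not tested.

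After 12 days at 31°C many synthesis genes stood higher and the exporters stood lower. Of the 31 genes, 14 rose and 4 fell, where 13% of all genes tested rose and 16.2% fell. The 14 were 11 of the 19 synthesis enzymes together with Srebf2, Insig1 and the sterol carrier Stard4. The 4 that fell were the exporters Abca1 and Abcg1, the lysosomal sterol carrier Npc2 and the esterifying enzyme Soat1. Under scaling to 4 reference genes all 4 stood above 0 by 0.03 to 0.17, where the median of all genes stood at 0.85. With total counts only Soat1 of the 4 was still called, and with Hprt and Tbp as references none was. The median change of the members was 0.23, against 0.012 over all genes, and that of the enzymes was 0.61. No enzyme fell, and by edgeR the only one below 0 with an adjusted p under 0.05, or an unadjusted one, was Sc5d, at -0.13.

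After 1 day little of this was seen. Hsd17b7 rose and Tm7sf2 fell, 1 gene in each direction, where 7.71% of all genes rose and 13.4% fell. The members' median was -0.03, against -0.0088 over all genes. The direct test of day 12 against day 1 found 9 members higher and 2 lower, where 10.6% of all genes were higher and 8.53% lower, with a median of 0.41 for the members and 0.0092 for all genes. Both comparisons with day 0 use the same 5 day 0 libraries.

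**Figure D1:**
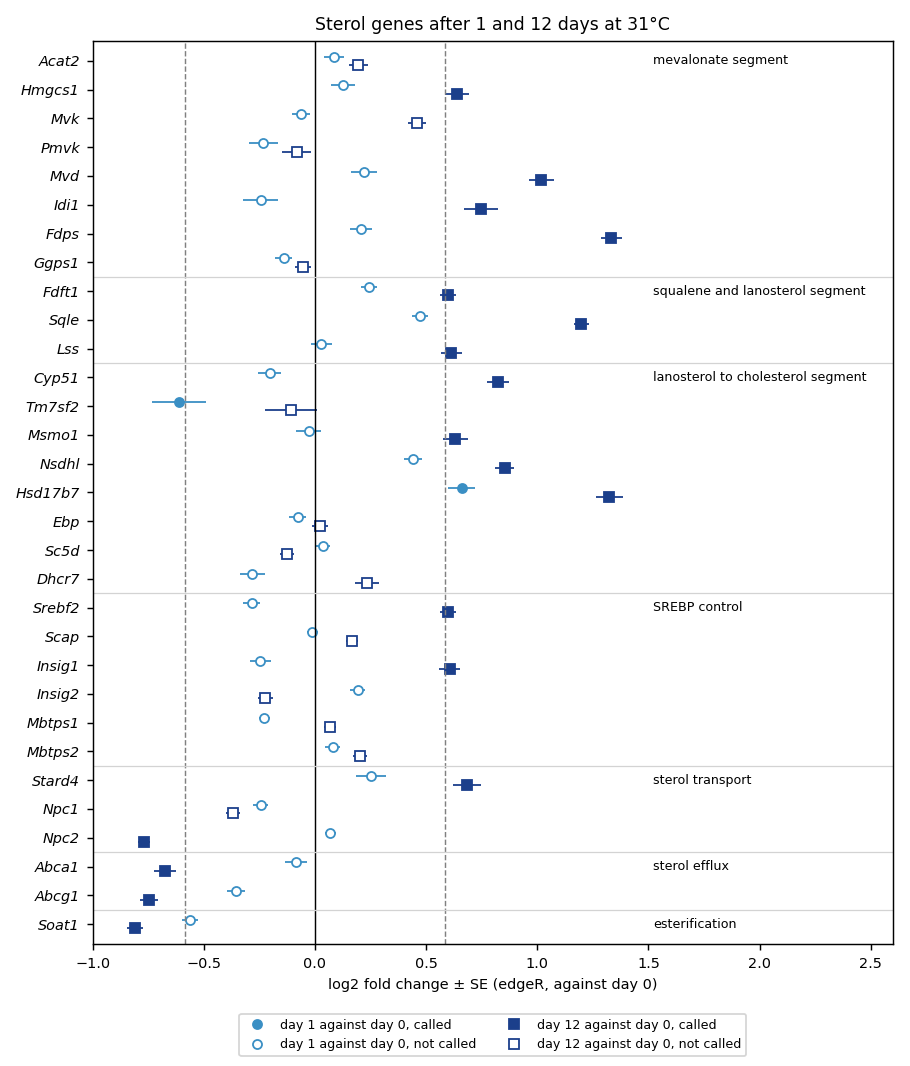
Log2 fold change ± SE of the 31 genes against day 0, grouped by role from the start of the pathway (top) to esterification (bottom), after 1 day (light circles) and 12 days (dark squares) at 31°C. Filled symbols were called and dashed lines mark a fold change of 1.5. Under scaling to 4 reference genes the day 12 values of the 4 filled squares on the left lie above 0. The median of all genes then lies at 0.85.

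Signs depend on how the libraries are scaled, since the scaling sets where the middle of all genes lies. With total counts the median of all genes stood at 0.21 at day 12 against day 0, with 4 reference genes of the study's quantitative PCR (Hprt, Tbp, Gapdh and B2m) at 0.85, and with Hprt and Tbp alone, chosen after seeing the data, at 0.27. B2m and Gapdh, used as references in that scaling, themselves stood at -2.12 ± 0.054 and -0.70 ± 0.042 at day 12 under TMM. Among all genes called at day 12, those that were lower made up 55.6% under TMM scaling, 35.9% under total counts, 29.8% under Hprt and Tbp and 6.21% under the 4 reference genes, and against day 1 these shares were 44.7%, 27.3%, 15.0% and 2.44%. At day 12 the members called higher and lower numbered 15 and 1 with total counts and 15 and 0 with Hprt and Tbp. With the 4 reference genes they numbered 26 and 0. Of all 14293 genes, 2982, 3563 and 9713 were called higher in that order. Such scalings shift all genes by nearly one amount, so these libraries cannot say which is right. The directions below are TMM directions, relative to the middle of all genes. Measured from the median of all genes, all 31 members kept their direction at day 12 under each of these scalings.

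The short stretches of DNA upstream of the genes that rose are shown because SREBP-2 is known to act at such sites together with the CCAAT-binding factor NF-Y. RefSeq promoter windows of GRCm38.p6 were matched by symbol for 25 of the 31 genes. Each ran from 250 bases before to 50 after a RefSeq start, and a gene counted if any of its windows matched. For Nsdhl and Sc5d that start lies upstream of the gene start used for positions here (Nsdhl window end 72918570, gene start 72918557). The only Dhcr7 window with a CCAAT box, from 143829964, lies inside the gene, which starts at 143823145. The best-known form of the sterol regulatory element, TCACNCCAC on either strand, was found in 1 of the 25, Hmgcs1, where 1.44% of 27025 genes held it. A looser form chosen after that search, TCACNCNAC, which includes the first, was found in 2 genes, Hmgcs1 and Nsdhl (8% against 3.15% of all genes). The CCAAT box, searched as CCAAT on either strand, was present in 20 of the 25 genes (80% against 41.1% of all genes). It was present in all 10 of the genes that rose at day 12 and have a window, and in 10 of the 15 others. GGGCGG, the GC box, was found in 88% of the members and 38.2% of all genes, and the E-box CACGTG in 24% and 8.09%. These are matches of letters, and binding was not measured.

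The 2 stretches around the sterol regulatory element matches read 5′ to 3′ as follows, on the strand of the gene, with capitals on the match and on each CCAAT box (ATTGG where it lies on the opposite strand).
Hmgcs1 (chr13:119690154-119690282, plus strand): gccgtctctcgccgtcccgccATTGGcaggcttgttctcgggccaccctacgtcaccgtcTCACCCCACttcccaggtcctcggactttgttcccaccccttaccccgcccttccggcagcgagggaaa
Nsdhl (chrX:72918271-72918384, plus strand): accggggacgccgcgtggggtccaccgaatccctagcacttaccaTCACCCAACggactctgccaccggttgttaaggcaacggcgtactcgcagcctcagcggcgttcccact
The stretches around the CCAAT box nearest to the start of each of the other members that rose and have a window are given in the same way. The distance of the box from the start ran from 216 bases before it, in Insig1, to 12 bases before it, in Hsd17b7.
Mvd (chr8:122443415-122443479, minus strand): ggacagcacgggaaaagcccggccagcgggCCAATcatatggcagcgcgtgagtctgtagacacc
Idi1 (chr13:8885562-8885626, plus strand): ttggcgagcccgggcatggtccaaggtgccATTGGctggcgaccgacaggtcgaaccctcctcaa
Lss (chr10:76531513-76531577, plus strand): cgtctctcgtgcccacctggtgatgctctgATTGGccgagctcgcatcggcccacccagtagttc
Cyp51 (chr5:4104692-4104756, minus strand): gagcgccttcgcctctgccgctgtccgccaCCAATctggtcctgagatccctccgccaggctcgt
Msmo1 (chr8:64733599-64733663, minus strand): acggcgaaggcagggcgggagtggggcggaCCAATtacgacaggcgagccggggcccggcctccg
Hsd17b7 (chr1:169969183-169969247, minus strand): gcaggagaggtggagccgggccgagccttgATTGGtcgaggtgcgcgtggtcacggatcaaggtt
Srebf2 (chr15:82147104-82147168, plus strand): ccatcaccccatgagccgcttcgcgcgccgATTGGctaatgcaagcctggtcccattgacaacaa
Insig1 (chr5:28071166-28071230, plus strand): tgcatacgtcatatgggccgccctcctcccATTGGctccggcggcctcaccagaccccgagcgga
Of these 8 genes, the box lies on the opposite strand in 5, Idi1, Lss, Hsd17b7, Srebf2 and Insig1.

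In the mevalonate segment, which builds isoprenoid diphosphates from acetyl-CoA units, 4 of 8 genes rose at day 12 and none fell. Fdps (chr3:89093588-89101959, minus strand), the farnesyl diphosphate synthase at the branch point between sterols and other isoprenoids, had, with Hsd17b7, the largest change of the 31 genes at day 12, the 2 values differing by less than their SEs. In replicates 1 to 5, Fdps stood at 20.3, 16.98, 17.6, 19.9 and 20.3 CPM at day 0, at 20.6, 21.96, 22.1, 22.3 and 22.96 CPM at day 1 and at 48.2, 45.7, 48.5, 47.1 and 50.1 CPM at day 12. All 5 day 12 libraries lay well above the other 10, and the day 1 libraries lay just above those of day 0. The change was 1.33 ± 0.047 at day 12 (adjusted p = 6.23e-18, edgeR), a 2.52-fold level, and 0.21 ± 0.048 at day 1, under the fold change limit. Of its exon bases, 77.4% also belong to an annotated gene on the same strand, Gm43738, that has no row of its own in the table, so reads of the pair cannot be separated.

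Mvd, which makes isopentenyl diphosphate by decarboxylation, rose by 1.02 ± 0.057 at day 12 (adjusted p = 4.16e-14, edgeR), from 6.66 ± 0.377 to 13.5 ± 0.854 CPM (SD, n = 5 each). Idi1, the isomerase that follows it, rose by 0.75 ± 0.076 (adjusted p = 3.56e-09), and stood at -0.24 ± 0.079 at day 1 (12.6 to 18.04 CPM, against 17.5 to 22.8 at day 0), so that its day 12 level was 0.99 ± 0.078 above that of day 1. Hmgcs1, the HMG-CoA synthase that commits acetyl units to the pathway, rose by 0.64 ± 0.054 (adjusted p = 1.16e-10), from 69.0 ± 6.61 to 108 ± 3.21 CPM. It was the highest of the 19 enzymes per length at day 0, at 19.8 ± 1.90 CPM per kb of exon, and at day 12 Fdps (33.0 ± 1.13) and Hmgcs1 (30.9 ± 0.923) were the 2 highest. Antisense or overlapping annotated genes share 16% of the exon bases of Hmgcs1 and 10.7% of those of Idi1.

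The other 4 genes of the segment were not called at day 12. Mvk, the mevalonate kinase, stood at 0.46 ± 0.040 (adjusted p = 1.65e-10, edgeR), with every day 12 library above every other one, short of the fold change limit. Acat2, the cytosolic thiolase at the head of the pathway, stood at 0.19 ± 0.043 and has a close paralog, Acat3, with which its reads may be shared. The kinase after Mvk, Pmvk, stood at -0.08 ± 0.064, and Ggps1, which leads farnesyl units away to geranylgeranyl diphosphate, at -0.05 ± 0.037. The day 12 and day 0 libraries of these last genes overlapped. At day 1 the 8 genes lay between -0.24 (Idi1) and 0.22 (Mvd), with 4 above and 4 below 0.

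All 3 genes of the squalene and lanosterol segment rose at day 12. Sqle (chr15:59315077-59331192, plus strand), the squalene epoxidase and a rate-limiting step, stood at 22.2, 21.7, 22.5, 23.6 and 23.1 CPM in replicates 1 to 5 of day 0, at 29.5, 31.1, 32.9, 32.03 and 31.3 CPM at day 1 and at 51.5, 51.5, 53.9, 52.1 and 50.5 CPM at day 12. The 3 groups did not overlap and were ordered by time at 31°C. The change was 0.47 ± 0.035 at day 1, which missed the fold change limit (adjusted p = 1.61e-11, edgeR), and 1.198 ± 0.035 at day 12 (adjusted p = 1.42e-19), a 2.29-fold level. Lss, the lanosterol synthase that closes the rings, rose by 0.61 ± 0.047 at day 12 (adjusted p = 1.74e-11) and stood at 0.03 ± 0.048 at day 1. Its call was lost without day 12 replicate 2, at 0.57.

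Fdft1, the squalene synthase that commits farnesyl units to sterols, rose by 0.60 ± 0.037 at day 12 (adjusted p = 3.95e-13, edgeR), from 24.5 ± 0.872 to 37.1 ± 1.89 CPM. The value sat at the fold change limit, and the call was lost on leaving out day 0 replicate 2 (0.579) or day 12 replicate 4 (0.582) and with only genes of a mean of at least 10 CPM tested, at 0.579. Opposite to Fdft1, on 20.9% of its exon bases, lies the lysosomal protease gene Ctsb, at 1735 ± 18.6 CPM at day 0 and 1450 ± 26.9 at day 12, whose own change was -0.26. Whether the counting used strand was not given in the sources used here.

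In the segment from lanosterol to cholesterol, 4 of 8 genes rose at day 12 and none fell. Hsd17b7 (chr1:169949535-169969241, minus strand), the keto-reductase of the C4-demethylation complex, was the only synthesis enzyme that rose at both times. Its levels in replicates 1 to 5 were 10.01, 8.61, 8.62, 10.8 and 11.1 CPM at day 0, 14.98, 16.5, 15.4, 14.9 and 15.9 CPM at day 1 and 24.4, 23.04, 24.98, 26.1 and 24.5 CPM at day 12. The groups did not overlap, and each step was of like size. It rose by 0.66 ± 0.062 at day 1 (adjusted p = 1.2e-09, edgeR), by 1.32 ± 0.061 at day 12 (adjusted p = 1.19e-15), and by 0.66 ± 0.060 between day 1 and day 12 (adjusted p = 7.15e-10).

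The same demethylation complex also uses the C4-methyl oxidase Msmo1 and the dehydrogenase Nsdhl. Nsdhl rose by 0.85 ± 0.042 at day 12 (adjusted p = 3.26e-15, edgeR), from 17.4 ± 0.919 to 31.3 ± 1.03 CPM, and stood at 0.44 ± 0.042 at day 1, below the limit with all 5 libraries above those of day 0. Msmo1 rose by 0.63 ± 0.056 at day 12 (adjusted p = 2.98e-10) and stood at -0.03 ± 0.057 at day 1. Cyp51, the lanosterol demethylase that precedes them, stood on opposite sides of day 0 at the 2 times. Its day 1 libraries lay below every day 0 library (17.7 to 20.1 against 20.2 to 22.9 CPM), its day 12 libraries above every one (34.1 to 42.1 CPM), and it rose by 0.82 ± 0.051 at day 12 (adjusted p = 3.28e-13).

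Tm7sf2 (chr19:6062821-6068373, minus strand), a sterol C14-reductase that acts after Cyp51, did not follow the enzymes around it. It stood at 3.29, 2.88, 2.34, 3.05 and 3.07 CPM in replicates 1 to 5 of day 0, at 1.54, 1.76, 1.86, 2.02 and 2.35 CPM at day 1 and at 2.75, 2.99, 2.98, 2.44 and 2.44 CPM at day 12. Among the enzymes it was the lowest per length, at 1.73 ± 0.211 CPM per kb at day 0. It fell by 0.61 at day 1 (SE 0.12, adjusted p = 8.13e-05, edgeR), with 1 day 1 library, at 2.35 CPM, reaching the lowest day 0 library, at 2.34 CPM. The call rests on single libraries and was lost on leaving out day 0 replicate 1 (-0.56), day 1 replicate 1 (-0.54) or day 1 replicate 2 (-0.584). At day 12 it stood at -0.11 ± 0.12, with the libraries mixed among those of day 0.

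The last steps of the pathway were not called at day 12. Ebp, the sterol isomerase, stood at 0.02 ± 0.037, Sc5d, the lathosterol oxidase, at -0.13 ± 0.032, and Dhcr7, the 7-dehydrocholesterol reductase, at 0.23 ± 0.055. Dhcr7 shared the pattern of Cyp51 on a smaller scale, with every day 1 library below every day 0 library (12.5 to 14.4 against 15.0 to 17.5 CPM) and every day 12 library above them (17.6 to 21.8 CPM). Its day 12 level exceeded that of day 1 by 0.52 ± 0.056 (adjusted p = 1.59e-08, edgeR), short of the fold change limit. Day 1 values of the other uncalled enzymes of this segment were -0.08 for Ebp and 0.04 for Sc5d.

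**Figure D2:**
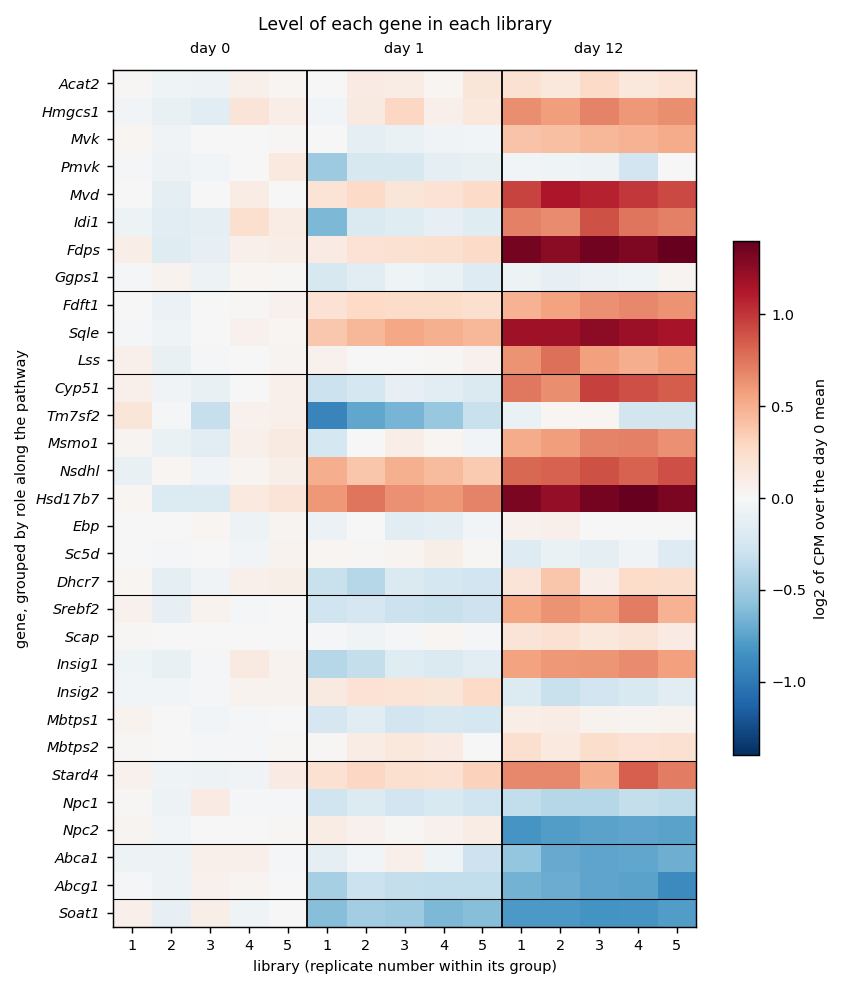
Level of each of the 31 genes (rows) in each of the 15 libraries (columns, by group and replicate), as log2 of CPM over the day 0 mean of that gene. In the day 12 block 15 of 19 enzymes stand above 0 (red), of which 11 were called. The 4 genes that fell lie in blue at the bottom, and Npc1 (-0.37) is also below 0. These 4 stand above 0 under scaling to 4 reference genes, where the median of all genes is 0.85. The day 1 block is mostly pale.

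In the control system, Srebf2 and Insig1 rose at day 12 and 4 of 6 genes were not called. Srebf2 (chr15:82147181-82205379, plus strand) stood at 70.95, 62.9, 70.5, 67.2 and 68.4 CPM in replicates 1 to 5 of day 0, at 55.95, 57.6, 55.2, 54.6 and 55.8 CPM at day 1 and at 99.99, 105, 102, 112 and 95.6 CPM at day 12. Every day 1 library lay below, and every day 12 library above, the 5 of day 0. The change was -0.28 ± 0.038 at day 1 (adjusted p = 3.71e-07, edgeR, under the fold change limit) and 0.60 ± 0.037 at day 12 (adjusted p = 3.91e-13), and the direct difference of day 12 from day 1 was 0.88 ± 0.038 (adjusted p = 6.54e-16). The day 12 call sat at the limit and was lost on leaving out day 0 replicate 2 (0.571) or day 12 replicate 4 (0.567), with only the day 0 and day 12 groups in the fit, at 0.584, and with only genes of a mean of at least 10 CPM tested, at 0.578.

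The INSIG proteins both hold SCAP in the endoplasmic reticulum, and Insig1 is itself a target of SREBP-2 while Insig2 is not known to depend on it. Insig1 (chr5:28071363-28078662, plus strand) stood at 30.9, 30.03, 31.7, 35.03 and 33.4 CPM in replicates 1 to 5 of day 0, at 24.4, 25.7, 28.6, 28.1 and 28.9 CPM at day 1 and at 47.5, 49.1, 49.5, 51 and 47.96 CPM at day 12. Insig2 (chr1:121304353-121332589, minus strand) stood at 92, 92.2, 93.7, 98.01 and 97.95 CPM at day 0, at 103, 109, 109, 106.5 and 114 CPM at day 1 and at 83.3, 76.1, 78.99, 81.9 and 85.7 CPM at day 12. The pair formed mirror images, with no overlap between any 2 groups of either gene, Insig1 lowest and Insig2 highest at day 1. Insig1 stood at -0.25 ± 0.046 at day 1 and rose by 0.61 ± 0.046 at day 12 (adjusted p = 1.35e-11, edgeR), a call lost without day 0 replicate 2, at 0.581. Insig2 stood at 0.19 ± 0.034 at day 1 and at -0.22 ± 0.034 at day 12 (adjusted p = 2.13e-06), neither past the fold change limit, and its day 12 sign turned to 0.62 with the 4 reference genes and 0.04 with Hprt and Tbp.

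Per length, Insig2 stood above Insig1 in every group, at 32.1 ± 1.01 against 11.9 ± 0.746 CPM per kb at day 0, 36.6 ± 1.37 against 10.1 ± 0.734 at day 1 and 27.5 ± 1.27 against 18.2 ± 0.514 at day 12. The escort gene Scap was steadier, at 84.0 to 85.2 CPM at day 0, 81.5 to 86.3 at day 1 and 91.8 to 97.9 at day 12, a day 12 change of 0.17 ± 0.025. Genes not in the table overlap 18.6% of its exon bases. The site-1 protease gene Mbtps1 stood at -0.23 ± 0.026 at day 1 and 0.07 ± 0.026 at day 12, and the site-2 protease gene Mbtps2 at 0.08 ± 0.034 and 0.20 ± 0.033. Of the exon bases of Mbtps2, 36.1% belong also to Yy2 on the same strand, a gene at 0.796 ± 0.155 CPM at day 0 and 1.65 ± 0.267 at day 12.

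Sterol transport genes were split. Stard4, a soluble carrier that moves cholesterol to the endoplasmic reticulum and a known SREBP-2 target, stood at 5.83, 5.38, 5.32, 5.40 and 6.04 CPM in replicates 1 to 5 of day 0, at 6.47, 6.85, 6.51, 6.49 and 6.98 CPM at day 1 and at 8.93, 8.90, 7.93, 10.02 and 9.20 CPM at day 12. The groups did not overlap and were ordered by time at 31°C. The change was 0.25 ± 0.066 at day 1 and 0.68 ± 0.065 at day 12 (adjusted p = 1.01e-09, edgeR), a 1.61-fold level. It was also the lowest of the 31 genes per length at day 0, at 1.08 ± 0.0614 CPM per kb.

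Npc2 (chr12:84754562-84773152, minus strand) encodes the soluble lysosomal protein that hands cholesterol from internalised lipoprotein to the membrane protein NPC1. It was the most abundant member, at 265 ± 5.36 CPM per kb at day 0, followed by Abca1 at 51.5 ± 2.51. Its libraries stood at 896, 848, 869, 874 and 882 CPM at day 0, at 939, 913, 884, 910.3 and 937 CPM at day 1 and at 493, 509, 521, 523 and 519.9 CPM at day 12. Days 0 and 1 overlapped, and all 5 day 12 libraries lay far below both. It fell by 0.77 at day 12 (SE 0.026, adjusted p = 2.2e-18, edgeR) and stood at 0.07 ± 0.026 at day 1. Npc1 stood at -0.24 ± 0.033 at day 1 and -0.37 ± 0.033 at day 12 (adjusted p = 2.94e-10), with each group's libraries clear of the others and neither value past the fold change limit. Under scaling to the 4 reference genes the day 12 values of Npc1 and Npc2 stood at 0.47 and 0.07, and the Npc2 call was lost with total counts (-0.575) and with Hprt and Tbp (-0.507).

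Efflux and storage genes stood lower at day 12. Abca1 (chr4:53030787-53159895, minus strand), which loads cholesterol and phospholipid onto lipid-poor apolipoproteins, stood at 504, 504.5, 554, 557 and 524 CPM in replicates 1 to 5 of day 0, at 482, 516, 557, 507 and 432.5 CPM at day 1 and at 364, 324, 317, 319 and 330.1 CPM at day 12. Days 0 and 1 overlapped, and day 12 lay below both. It fell by 0.68 at day 12 (SE 0.050, adjusted p = 9.48e-12, edgeR) and stood at -0.08 ± 0.050 at day 1. The day 12 call was lost with total counts (-0.483) and with Hprt and Tbp (-0.415), and with the 4 reference genes the value stood at 0.166. Against day 1 Abca1 fell by 0.59 (adjusted p = 2.06e-10, edgeR), a call at the limit. That call was lost without day 1 replicate 2 (-0.58) or 3 (-0.55), or day 12 replicate 2 (-0.584), 3 (-0.577) or 4 (-0.579). It was also lost with total counts (-0.419) and with Hprt and Tbp (-0.254). With only genes of a mean of at least 10 CPM tested the value stood at -0.566, and with the 4 reference genes at 0.201.

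Abcg1 (chr17:31057675-31117988, plus strand), which passes cholesterol to formed lipoprotein particles, stood at 65.4, 63.5, 69.8, 68.8 and 66.6 CPM at day 0, at 48.3, 54.3, 53.1, 52.8 and 52.7 CPM at day 1 and at 42.4, 41.3, 39.9, 39.6 and 36.01 CPM at day 12. Soat1 (chr1:156424525-156474331, minus strand), the acyltransferase that makes cholesteryl esters for storage, stood at 65.6, 57.7, 66.04, 59.6 and 62.6 CPM at day 0, at 41.2, 44.4, 43.9, 40.4 and 41.1 CPM at day 1 and at 35.7, 35.6, 35, 35.2 and 36.3 CPM at day 12. Both were already lower in every day 1 library than in any day 0 library, and lower again in every day 12 library. Abcg1 stood at -0.36 ± 0.040 at day 1 and fell by 0.75 at day 12 (SE 0.040, adjusted p = 2.46e-14, edgeR). Soat1 stood at -0.56 ± 0.038 at day 1 (adjusted p = 2.17e-12, edgeR), just short of the fold change limit. It passed that limit without day 0 replicate 2 (-0.589) and with Hprt and Tbp (-0.638). It also passed with only genes of a mean of at least 10 CPM tested (-0.608). Soat1 fell by 0.81 at day 12 (SE 0.038, adjusted p = 1.37e-15, edgeR). The Abcg1 call at day 12 was lost with total counts (-0.553) and with Hprt and Tbp (-0.485), the Soat1 call with Hprt and Tbp (-0.548), and with the 4 reference genes they stood at 0.094 and 0.031. The order of the groups was the same for both genes, but Soat1 made most of its change by day 1, and its step from day 1 to day 12 was -0.25 ± 0.038.

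**Figure D3:**
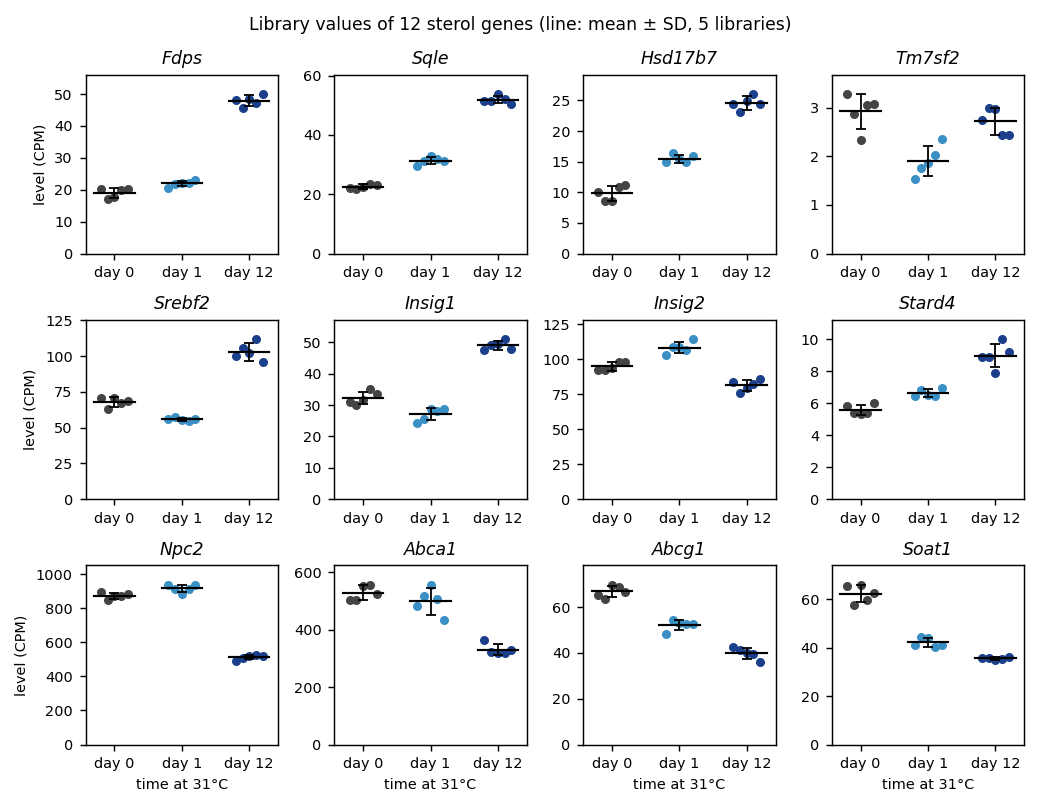
CPM of 12 of the genes in each library, 5 libraries a group, with the mean ± SD and axes that start at 0. Fdps, Sqle, Hsd17b7 and Stard4 were highest at day 12, and Srebf2 and Insig1 were lowest at day 1 and highest at day 12. Insig2 was the reverse, and Npc2, Abca1, Abcg1 and Soat1 were lowest at day 12. These 4 and Insig2 stand above day 0 under scaling to 4 reference genes, where the median of all genes is 0.85.

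Day 12 was also compared with day 1 directly. The 7 enzymes called higher at day 12 than at day 1 were Fdps (1.124), Cyp51 (1.03), Idi1 (0.99), Mvd (0.80), Sqle (0.73), Hsd17b7 (0.66) and Msmo1 (0.66), and Srebf2 (0.88) and Insig1 (0.85) were the other 2 members. Each of these had an adjusted p of 7.15e-10 or less in edgeR. Of the enzymes that rose against day 0, Lss (0.584), Hmgcs1 (0.51), Nsdhl (0.41) and Fdft1 (0.36) were not called in this comparison, and Lss passed the limit under several settings, at 0.585 with the library number series as a covariate and 0.61 with only genes of a mean of at least 10 CPM tested. Npc2, at -0.84 ± 0.026, and Abca1 were the 2 members lower at day 12 than at day 1.

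Neighbouring genes were described by the same counts. Among 17 genes of LXR signalling, oxysterols and lipoprotein handling, 3 fell and none rose at day 1, and 5 fell and 1 rose at day 12. The medians were -0.30 and -0.21. Of the list 17.6% and 29.4% fell, where 13.4% and 16.2% of all genes did. Without the fold change limit 13 and 16 of the 17 passed, in either direction. Over all 14293 genes, 5049 were higher and 5177 lower at day 1 without that limit, and 5608 and 5342 at day 12. Nr1h3, which encodes LXRα, fell by 0.69 at day 1 (SE 0.055, adjusted p = 6.04e-11, edgeR), and Cyp27a1, the mitochondrial sterol 27-hydroxylase, fell by 1.60 at day 12 (SE 0.099, adjusted p = 2.89e-13). Ch25h, which makes 25-hydroxycholesterol, a ligand of INSIG proteins, was the gene of this list with the largest step from day 1 to day 12, at 2.15 ± 0.059 (adjusted p = 1.32e-19), from 8.30 to 36.9 CPM against 13.1 CPM at day 0.

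Among 9 genes of sterol sensing and SREBP processing, 2 rose and 1 fell at day 1, led by Tmem97 (0.63 ± 0.036), and none was called at day 12, where the median was 0.34. At an adjusted p under 0.05 alone, 7 of the 9 passed at day 12. Of all 14293 genes, 5608 passed higher and 5342 lower there. Among 15 genes of sterol transfer inside the cell, Arv1 rose at day 1 (0.60 ± 0.099) and Gramd1b fell at day 12 (by 0.76, SE 0.092), with medians of 0.05 and 0.03. Of 15 genes on isoprenoid branches, Pdss1, which builds the side chain of ubiquinone, rose at both times (1.02 ± 0.13 and 1.43 ± 0.12), and 1 other gene was called, Coq2, which attaches that chain and was lower at day 12 (by 0.66 against day 1, SE 0.044), while the list's medians were 0.0032 and 0.0056.

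The related transcription factor SREBP-1 drives fatty acid synthesis, and its 10 listed target enzymes gave 1 gene up and 1 down at each time, with medians of -0.10 and -0.12. The gene that rose was Scd1, the stearoyl-CoA desaturase, by 1.23 ± 0.068 at day 1 and 1.501 ± 0.068 at day 12 (adjusted p = 8.26e-16, edgeR). The medians of these lists stood nearer to that of all genes at day 12 than the enzymes' 0.61 did.

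**Figure D4:**
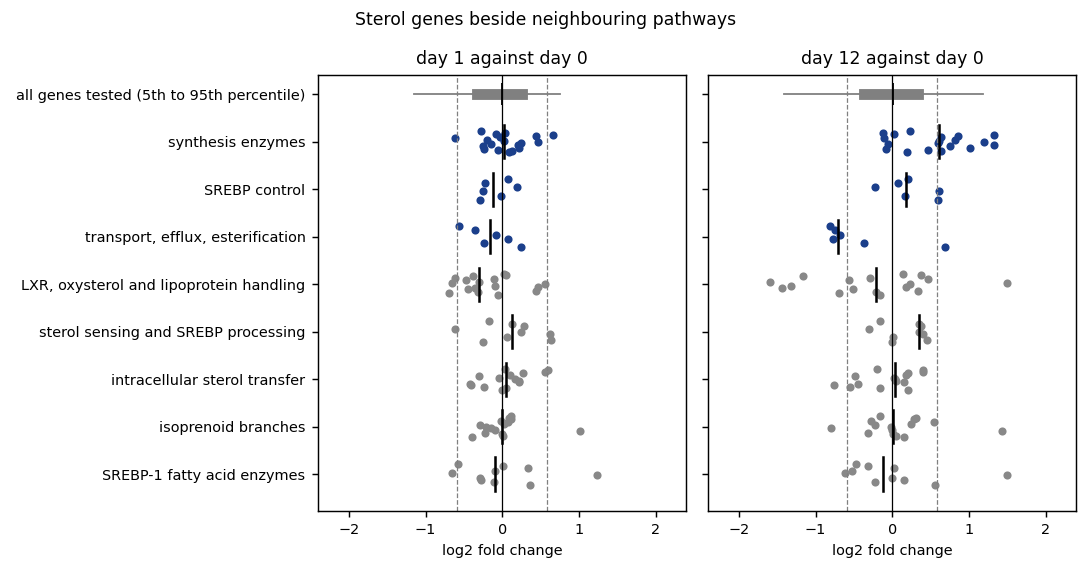
Log2 fold changes against day 0 of the members (blue) and of the genes of 5 neighbouring lists (grey), 1 point a gene, with the median of each list as a black bar and the 5th to 95th and 25th to 75th percentiles of all 14293 genes on top. At day 12 the enzymes spread to the right (median 0.61). Of the 6 transport, efflux and esterification genes, 5 lie to the left and Stard4 to the right (0.68). All 5 lie above 0 under scaling to 4 reference genes, where the median of all genes is 0.85.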

How the data were processed

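RNA from 15 libraries of cultured mouse adipocytes (3 groups of 5, placed by their labels) had been sequenced. Per the labels and the study's methods, the authors aligned reads to mm10 with TopHat2 2.0.13 and Bowtie2 2.2.1, checked quality with FastQC, and deposited the raw counts that HTSeq gave for each gene. The strand setting and annotation of HTSeq were not given in the sources used here. The authors also deposited regularized log2 values and DESeq2 tables of fold change and p-value for each time point against day 0. Neither was used.

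The deposited counts were filtered with filterByExpr (minimum count 10), scaled by TMM and tested by quasi-likelihood in edgeR 4.0.16 (R 4.3.3). A single fit without covariates held all libraries, where the study used DESeq2. Calls needed a fold change over 1.5 and an adjusted p under 0.05. Dispersion gave a coefficient of variation of 5.25% between libraries. Each SE is the log2 fold change divided by the root of F. The fit was tested on simulated data with known changes. In no pair of libraries of a group did counts agree within sampling noise (lowest chi-square per degree of freedom 5.69).

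Members, lists and tests were chosen with earlier results of these data known. Library values are given for the called gene with the largest rise and the largest fall in each role, and for Srebf2, Insig1, Insig2, Stard4 and Abca1. From the neighbouring lists the called gene with the largest change is named per list and comparison. Alternatives were DESeq2 1.42.0, other scalings, filters and fold change limits, fits without each library, with a replicate block, by library number series (11 and 4 libraries) and with only the groups compared. CPM per kb used the union of exons in GENCODE vM21, on GRCm38, the assembly of mm10, which was also used for gene positions and overlaps.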

Additional observations from a re-analysis of the deposited data

Results flagged for a closer look

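In 93 groups of 5 libraries, each group being 1 gene at 1 time, 4 libraries stood apart from the other 4 by Dixon's criterion at 95%, which chance meets in about 1 of 20 groups. Idi1 stood at 12.6 CPM in day 1 replicate 1, against 16.96 to 18.04 in the others, and Abcg1 at 48.3 CPM in the same library, against 52.7 to 54.3. Pmvk stood at 11.6 CPM in day 12 replicate 4, against 13.3 to 13.9, and Abca1 at 364 CPM in day 12 replicate 1, against 317 to 330.1.

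For 5 genes the responses at the 2 times differed in direction. Every day 1 library lay on one side of the day 0 libraries and every day 12 library on the other. How many of all genes show this pattern was not counted. The direct test of day 12 against day 1 gave 1.03 for Cyp51, 0.88 for Srebf2 and 0.85 for Insig1, all called by edgeR, and 0.52 for Dhcr7 and -0.41 for Insig2, both past the limit on adjusted p but short of a 1.5-fold change. Under scaling to the 4 reference genes and to Hprt and Tbp the day 12 value of Insig2 against day 0 stood above 0, so its change of direction was lost there.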

How the results depend on the processing

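DESeq2 size factors, the DESeq2 test, no filter, only the groups compared, the library number series as a covariate and the larger series alone left the counts of called members within 1.5 times those reported. Replicate numbers did not pair the libraries (correlations of same-numbered deviations -0.045 to 0.077), and with the replicate block 14 members rose and 4 fell at day 12, 1 and 1 at day 1, and 9 and 2 against day 1, as without it. Both the scaling and the fold change limit moved counts further than this. At day 1 leaving out the limit moved the counts more than any of the scalings did. At day 12, 26 members were called higher with the 4 reference genes, and 1 (total counts) or 0 (either reference set) lower. Against day 1, 15 (total counts), 26 (4 reference genes) or 18 (Hprt and Tbp) were higher and 1, 0 and 0 lower. With the 4 reference genes 9713 of all 14293 genes were called higher at day 12 and 10196 against day 1. At day 1, 0 members were lower with the 4 reference genes and 2 with Hprt and Tbp. With no fold change limit the members higher and lower numbered 11 and 12 at day 1 and 20 and 7 at day 12. Against day 1 they numbered 24 and 7. Over all 14293 genes these counts were 5049 and 5177, 5608 and 5342, and 4908 and 4690. With a limit of 2 the member counts were 0 and 0, 4 and 0, and 2 and 0, edgeR giving calls without the limit in each. Testing only genes of a mean of at least 10 CPM left 1 lower against day 1, and leaving out single libraries gave 0 to 2 lower at day 1, 11 to 14 higher at day 12 and 1 to 2 lower against day 1. Lss (-0.017) and Sc5d (-0.009) changed sign at day 1 under that filter. The cause of these shifts was not tested beyond the displacement of all genes' median given above.

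With total counts the sign turned for Scap at day 1 (0.008), for Pmvk (0.112), Ggps1 (0.139), Tm7sf2 (0.087) and Sc5d (0.066) at day 12, and for Sc5d (0.009) and Npc1 (0.047) against day 1. With the 4 reference genes it turned for Msmo1 (0.021) and Scap (0.037) at day 1, for Pmvk (0.76), Ggps1 (0.785), Tm7sf2 (0.734), Sc5d (0.711), Insig2 (0.617), Npc1 (0.47), Npc2 (0.07), Abca1 (0.166), Abcg1 (0.094) and Soat1 (0.031) at day 12, and for Sc5d (0.626), Insig2 (0.375), Npc1 (0.664), Abca1 (0.201), Abcg1 (0.4) and Soat1 (0.544) against day 1. With Hprt and Tbp, chosen after seeing the data, it turned for Lss (-0.045), Sc5d (-0.037) and Npc2 (-0.004) at day 1, for Pmvk (0.18), Ggps1 (0.207), Tm7sf2 (0.156), Sc5d (0.135) and Insig2 (0.038) at day 12, and for Sc5d (0.173), Npc1 (0.209) and Soat1 (0.09) against day 1. Msmo1 at day 1 ranged from -0.065 to 0.02 without single libraries, above 0 without day 0 replicate 5 (0.004) or day 1 replicate 1 (0.02). Depth limits the members with the fewest counts, Tm7sf2 (120 to 414 per library), Stard4 (465 to 891) and Mvd (549 to 1283).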
